A study of Mus musculus with 4 samples.

Results

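Six2, Six3, Six4, Six5 and Six6 are Six-family homeobox genes, related to sine oculis of the fly, and the peaks of the transcription factor Sp9 that were assigned to these 5 genes are described here. The genes were found by their exact names in the deposited peak lists of both stages, which hold 6474 gene names between them. Six3 and Six2 have a row in both lists, and Six4, Six5 and Six6 have a row in neither. Sp9, a zinc finger factor of the developing striatum, was mapped by ChIP-seq, the sequencing of DNA fragments pulled down with an antibody, in micro-dissected basal ganglia from CD1 wild-type embryos of the mouse. The groups were embryonic day 16.5 (E16.5) and embryonic day 13.5 (E13.5), each with 1 library made with a rabbit antibody to Sp9 and 1 input library without antibody. The study's title asks about Six3 as a gene that Sp8 and Sp9 activate when medium spiny neurons of the D2 type are produced. These are striatal output neurons with the dopamine receptor Drd2.

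Six-family proteins bind DNA through a homeodomain and an adjoining Six-type domain, through which they also meet partner proteins. Six3 and Six6, the closest relatives within the family, work in the forebrain and eye and can recruit Groucho corepressors, whose mouse genes are named Tle. Six2, Six4 and Six5 are known to work with Eya coactivators, and Dach proteins act in the same network. Six3 and Six2 are neighbours on mouse chromosome 17. Six6 and Six4 lie close together on chromosome 12, and Six5 lies apart from them on chromosome 7, beside Dmpk.

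Each list gives a peak as a number and a signed distance from the transcription start site (TSS) of every gene it was assigned to, on the mm9 build. The E16.5 list held 6022 peaks and the E13.5 list 5847. The lists hold no heights, widths, coordinates or read totals, so depth was unknown and no peak could be ranked by strength. Each stage had 1 ChIP library, so values had no replicate check and no test was made. Differences between the stages below are differences between these lists. The tissue label could not be checked against marker genes, since the lists hold no expression values. A gene without a row had no assigned peak past the authors' threshold, which leaves weaker binding undetermined, and a gene outside the authors' gene set would also have no row.

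Six3, which encodes a homeodomain factor needed for forebrain patterning, was the Six-family gene with the most peaks, and all of them lay on its upstream side. At E16.5 its 4 peaks lay 226673, 158369, 91865 and 5 bp upstream of the TSS. The 5 peaks of the E13.5 list lay at 243398, 226633, 158325, 112839 and 92082 bp on the same side. The E16.5 peak nearest to the gene therefore sat at the TSS, while the nearest E13.5 peak was 92082 bp away. Among the names in the lists, 525 of 5463 (9.61%) had at least as many peaks as Six3 at E16.5 and 427 of 4826 (8.85%) at E13.5, where the median gene had 1 peak in either list. Upstream placement of every peak was not rare, since 189 of 939 genes with 3 or more peaks at E16.5 (20.1%) and 204 of 1086 at E13.5 (18.8%) had it. The space around Six3 also differs by side. In GRCm38.p6 its start lies 530208 bp from that of its upstream neighbour Camkmt and 67420 bp from that of Six2. Neither the peak counts nor the sides were corrected for the space around a gene.

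Six2, known for keeping nephron progenitors undifferentiated in the kidney, had 3 peaks at each stage, again all upstream. At E16.5 they lay 387934, 261583 and 184878 bp from its TSS. At E13.5 they lay at 387932, 341920 and 261508 bp. None of the peaks assigned to Six2 came within 100 kb of it in either list. The E16.5 peak 5 bp from the Six3 TSS was assigned to Six3 alone, although the Six3 and Six2 starts lie 67420 bp apart in GRCm38.p6.

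**Figure D1:**
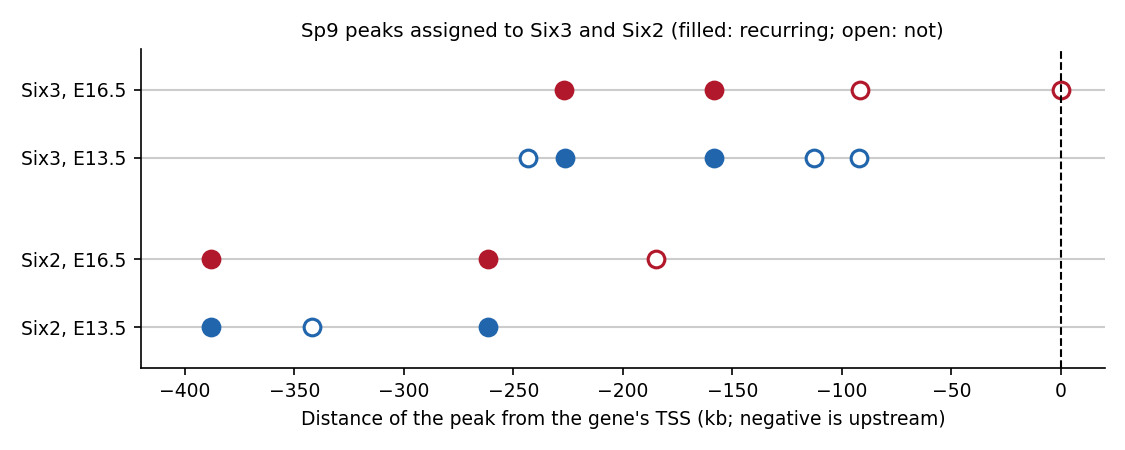
Each point is 1 Sp9 peak assigned to Six3 or Six2, placed by its distance from that gene's TSS in kb, in the E16.5 list (red) and in the E13.5 list (blue). Filled points have a peak of the same gene within 200 bp in the other list, and open points do not; the point at the Six3 TSS is in the E16.5 list.

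The peak 5 bp upstream of the Six3 TSS at E16.5 was the single promoter peak of the family, a promoter peak being one within 1 kb of a TSS. It makes 1 of the 5 genes with a promoter peak at E16.5 and 0 of 5 at E13.5. Of all 21900 protein-coding genes, the share with one was 9.42% at E16.5 and 4.93% at E13.5. Within 50 kb the members' counts were the same, 1 of 5 at E16.5 and 0 of 5 at E13.5, beside 15.1% and 10.8% of protein-coding genes. Within 100 kb it was 1 of 5 at both stages, beside 17.9% at E16.5 and 14.3% at E13.5. A peak counts here only for the genes it was assigned to, so the peak at the Six3 TSS does not count for Six2. Any assigned peak was found for 2 of 5 genes at both stages, beside 23.6% at E16.5 and 20.7% at E13.5. With 5 genes these counts are not read as different from the backgrounds.

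**Figure D2:**
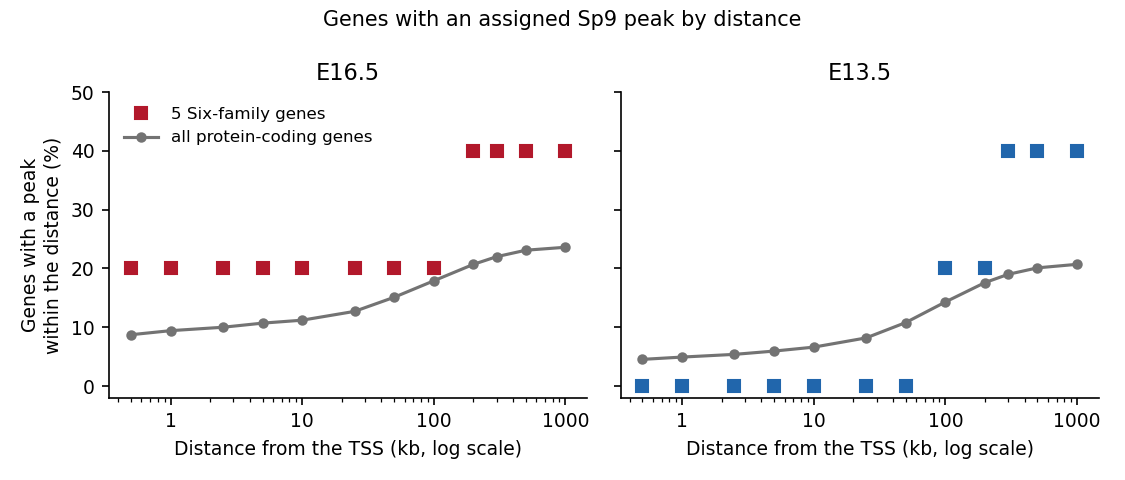
Share of genes with an assigned peak within a distance of the TSS (kb, log axis) at E16.5 (left) and E13.5 (right), for the 5 Six-family genes (squares) and for 21900 protein-coding genes (grey line). The squares stand at 1 of 5 genes up to 100 kb at E16.5, from Six3 alone, and at 0 up to 50 kb at E13.5, and reach 2 of 5 where the Six2 peaks come in.

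The promoter sequences are shown to set the Six3 promoter, where a peak was listed at E16.5, beside those of its neighbour Six2 and its closest relative Six6, where neither list had one. They are RefSeq windows of the GRCm38.p6 build, another build than that of the lists, and run 5′ to 3′ on the gene's strand from 250 bases before a transcript start to 50 after it. All 5 genes had an entry, Six4 for 2 starts. Capitals mark 3 motifs searched on both strands, the GC box GGGCGG and the CACCC box GGGTG, both known as sites of SP and KLF factors, and the homeodomain site TAATTA. Six3 lies on the plus strand at chr17:85620584-85620883, Six6 on the plus strand at chr12:72939632-72939931 and Six2 on the minus strand at chr17:85688205-85688504.
Six3: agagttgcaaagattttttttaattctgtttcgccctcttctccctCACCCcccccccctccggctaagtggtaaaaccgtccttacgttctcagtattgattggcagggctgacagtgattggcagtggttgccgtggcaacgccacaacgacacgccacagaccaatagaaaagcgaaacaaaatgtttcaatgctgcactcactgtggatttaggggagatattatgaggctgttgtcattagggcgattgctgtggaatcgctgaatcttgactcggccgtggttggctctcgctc
Six6: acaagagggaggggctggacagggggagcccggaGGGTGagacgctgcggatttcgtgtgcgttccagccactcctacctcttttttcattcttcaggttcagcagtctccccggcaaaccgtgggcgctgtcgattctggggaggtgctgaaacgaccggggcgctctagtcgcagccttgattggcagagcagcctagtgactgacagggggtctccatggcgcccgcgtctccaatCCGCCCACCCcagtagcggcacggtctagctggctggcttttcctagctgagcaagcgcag
Six2: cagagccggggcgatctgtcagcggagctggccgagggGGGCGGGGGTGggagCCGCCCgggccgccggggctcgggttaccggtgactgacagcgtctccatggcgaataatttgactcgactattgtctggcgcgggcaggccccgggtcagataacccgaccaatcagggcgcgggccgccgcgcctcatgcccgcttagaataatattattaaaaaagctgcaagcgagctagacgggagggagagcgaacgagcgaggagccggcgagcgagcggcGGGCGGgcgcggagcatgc

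The Six3 window held no GC box and 1 CACCC box, 204 to 200 bases before the start on the opposite strand. The Six6 window held 1 GC box and 2 CACCC boxes. Its GC box, 11 to 6 bases before the start, shares its last base with a CACCC box at 6 to 2 bases. The Six2 window held 3 GC boxes and 1 CACCC box. The GC box motif also stood 3 times in the Six5 window and once in each of the Six4 windows, which overlap and share that site. The homeodomain motif was in none of these 6 windows. Of all 32851 promoter windows in the table, 35.7% held a GC box, 57.5% a CACCC box and 5.29% the homeodomain motif. Guanine and cytosine made up 50% of the Six3 window, 62.3% of the Six6 window and 67.3% of the Six2 window. A motif match is a description of these letters and was not compared with binding.

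This Six3 start could be set against the authors' only through its spacing to Camkmt. Camkmt encodes a calmodulin lysine methyltransferase and is the next gene upstream. The promoter table puts the starts of Camkmt and Six3 530208 bp apart in GRCm38.p6. In the lists, the distances of a shared peak from Camkmt and from Six3 add up to 530237 bp in mm9, and they did so for every one of the 3 shared peaks at E16.5 and the 5 at E13.5. The start of Six2 lies 67420 bp from that of Six3 in the promoter table.

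Six3 and Six2 shared no peak with each other in either list, and none was listed between their start sites. The lists assign peaks by domains extended from each TSS, so which genes share a peak follows from gene order. Sharing is therefore given as a description of the assignment only. The Six3 and Six2 peaks were shared with the outer neighbours. All Six3 peaks other than the one at its TSS were also assigned to Camkmt. All Six2 peaks were also assigned to Srbd1, which encodes a protein with an S1 RNA-binding domain, and the distances of these shared peaks add up to 456901 bp in both lists. Every shared Six3 peak was nearer to Six3 than to Camkmt, at 286839 to 438372 bp from the Camkmt TSS. At Six2 the order was mostly the other way. The E16.5 peaks 387934 and 261583 bp from Six2 lay 68967 and 195318 bp from Srbd1, and the one 184878 bp from Six2 lay 272023 bp from Srbd1. The 3 E13.5 peaks of Six2 were all nearer to Srbd1, at 68969, 114981 and 195393 bp.

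Peak numbers run along the chromosome, as shown by the genes with 3 or more peaks, whose numbers followed distance in 99.1% of cases at E16.5 and 99.5% at E13.5. The Six3 and Six2 peaks carried consecutive numbers, 2595 to 2601 at E16.5 and 2501 to 2508 at E13.5. No further peak of either list therefore lay between the outermost peaks of this locus, assigned or not. The stretch between the Six3 and Six2 start sites held no peak in either list. At E16.5 the next peak beyond the one at the Six3 TSS lay 184878 bp upstream of Six2, and at E13.5 the peak 92082 bp upstream of Six3 was followed by the one 261508 bp upstream of Six2. Next after the Six2 peaks, the E16.5 list had a peak 137 bp upstream of the Srbd1 TSS, and the E13.5 list had none at that promoter.

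The same numbering places Six4, Six5 and Six6 in stretches without a peak, with the gene order taken from RefSeq. Six6, a retinal and hypothalamic regulator, and Six4, a regulator of muscle precursors, lie between Ppm1a and genes farther along chromosome 12. Ppm1a, a protein phosphatase gene, had a promoter peak in both lists, 3 bp downstream of the TSS at E16.5 and 112 bp upstream at E13.5. The peak with the next number was assigned to 1700086L19Rik and to Syt16, a synaptotagmin gene, at E16.5, 204842 bp downstream of the Syt16 TSS. At E13.5 the next number belonged to Hif1a and Prkch, 275307 bp downstream of the Prkch TSS. Around Six5, whose neighbour Dmpk carries the repeat expanded in human myotonic dystrophy, the nearest listed peaks were alike at both stages. Mypop had a peak 120 bp upstream at E16.5 and 185 bp upstream at E13.5. The next number was a peak shared by Fbxo46 and Qpctl, 11739 bp downstream of the Fbxo46 TSS at E16.5 and 11795 bp at E13.5.

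Recurring peaks were those matched in the other list, for the same gene, at a TSS distance within 200 bp. The family had 4 recurring pairs, 2 at Six3 and 2 at Six2. The Six3 pairs, near 227 and 158 kb upstream, differed by 40 and 44 bp between the stages. Those of Six2, near 388 and 262 kb upstream, differed by 2 and 75 bp. The third Six3 pair, near 92 kb, differed by 217 bp and so fell just outside the limit.

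Counted over both genes, 4 of 7 peaks recurred at E16.5 (57.1%) and 4 of 8 at E13.5 (50%). Both counts rest on the same 4 pairs at neighbouring genes, so they are not separate observations. Over all peaks the shares were 56.2% at E16.5 and 57.9% at E13.5. Among peaks more than 50 kb from every gene they were assigned to, 70.9% recurred at E16.5 and 56.3% at E13.5, beside 4 of 6 and 4 of 8 for the family. Peaks are not replicates of a stage, so these shares are a description and were not tested. Peaks that did not recur were, at E16.5, those 91865 and 5 bp upstream of Six3 and 184878 bp upstream of Six2. At E13.5 they were those 243398, 112839 and 92082 bp upstream of Six3 and 341920 bp upstream of Six2.

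The 217 bp pair was set against all 3569 E16.5 peaks that had an E13.5 peak of the same gene within 1000 bp. Their median difference was 41 bp, 94.8% differed by 200 bp or less, and 82 (2.30%) differed by more than 200 and up to 300 bp. The 4 recurring Six-family pairs stood near or below this median apart from the Six2 pair at 75 bp, and the 217 bp pair stood in the sparse tail. Whether its peaks overlap could not be determined without widths.

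**Figure D3:**
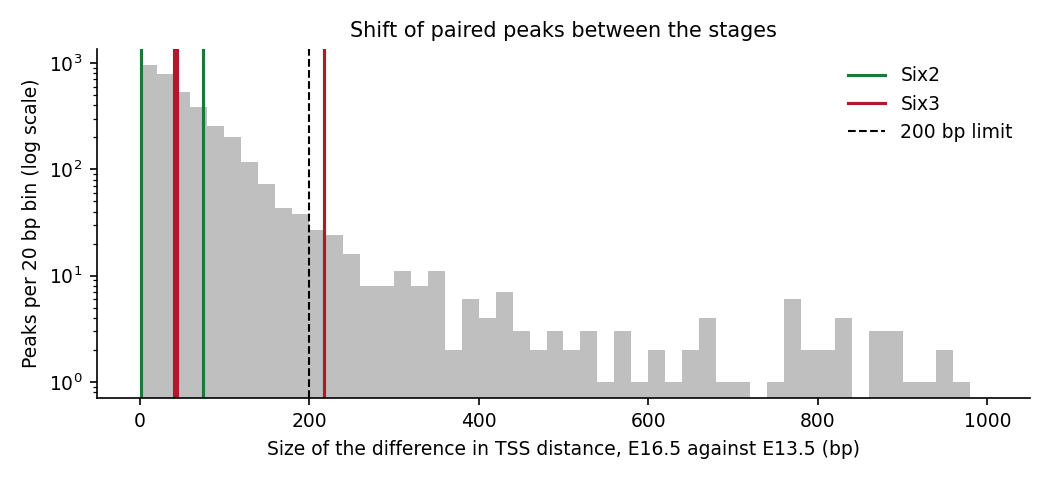
Grey bars count the E16.5 peaks (log axis, bins of 20 bp) by the size of their difference in TSS distance from the nearest E13.5 peak of the same gene, up to 1000 bp. Lines mark the Six3 pairs (red, 40, 44 and 217 bp) and the Six2 pairs (green, 2 and 75 bp), and the dashed line is the 200 bp limit.

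Of 2128 gene names with a promoter peak at E16.5, 1351 had none at E13.5, as at Six3, so most such names lacked one at E13.5. Of these 1351, 56 also had at least 2 recurring peaks beyond 50 kb, the form seen at Six3. In all, 871 names had at least 2 such recurring distant peaks. Of those 871, 109 had a promoter peak at E16.5, 76 at E13.5 and 53 at both. Likeness to Six3 was measured over both lists as the summed difference in the number of peaks in 5 distance ranges, divided at 1, 5, 50 and 500 kb. The closest was Krr1, a gene of ribosome assembly, with a sum of 1. It had a peak 28 bp downstream of the TSS at E16.5 and recurring peaks 435934 and 272792 bp upstream. Behind it, 7 genes tied at a sum of 2: 2300009A05Rik, Apbb2, Arntl, Lemd2, Srbd1, Tmem64 and Ythdc2. The first 4 of these are described, by alphabet alone. Apbb2 encodes an adaptor that binds the amyloid precursor protein, Arntl a core factor of the circadian clock and Lemd2 a nuclear envelope protein. The E16.5 promoter peaks of these 4 lay 1, 133, 147 and 10 bp upstream of the TSS, in the order named. Srbd1, the neighbour that shares the Six2 peaks, had a promoter peak at E16.5 and recurring peaks 68967 and 195318 bp downstream.

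Among 11 other genes of the Six-family network, 6 had an assigned peak at E16.5 and 6 at E13.5, beside 23.6% and 20.7% of protein-coding genes. By group, these were 2 of 6 Eya and Dach genes and 4 of 5 Groucho genes at E16.5. At E13.5 they were 3 of 6 and 3 of 5. With so few genes, the network counts here and below were not tested against the backgrounds. Of the Eya coactivator genes, Eya2 had a downstream peak at 90221 bp at E16.5 that recurred at 90179 bp at E13.5, and a further E13.5 peak 111755 bp upstream. Eya1 had a single peak, 408587 bp upstream, at E13.5, and Eya3 and Eya4 had none. Dach1, which encodes a transcriptional cofactor, had 7 peaks at E16.5 and 12 at E13.5, with 6 recurring, while Dach2 had none. Over all peaks, 56.2% recurred at E16.5 and 57.9% at E13.5. All 7 E16.5 peaks of Dach1 and 11 of its 12 E13.5 peaks lay beyond 50 kb. Among peaks over 50 kb from every gene they were assigned to, 70.9% recurred at E16.5 and 56.3% at E13.5. The Dach1 peaks were spread on both sides of the gene, from 640976 bp upstream to 632436 bp downstream at E16.5 and from 658257 bp upstream to 698923 bp downstream at E13.5.

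The Groucho genes Tle1, Tle3 and Tle4 had 8, 9 and 11 peaks at E16.5 and 13, 10 and 13 at E13.5. At Tle3 all 9 E16.5 peaks recurred, 7 of 8 did at Tle1 and 8 of 11 at Tle4, beside 56.2% of all E16.5 peaks. Of the E16.5 peaks, 6 of 9 at Tle3, 5 of 8 at Tle1 and all 11 at Tle4 lay beyond 50 kb. Among all E16.5 peaks over 50 kb from every gene they were assigned to, 70.9% recurred. At E13.5, 9 of 10 recurred at Tle3, 7 of 13 at Tle1 and 8 of 13 at Tle4, beside 57.9% of all E13.5 peaks. Tle2 had 1 peak, 4556 bp upstream, at E16.5, and Aes, a short Groucho gene also named Tle5, had none. A promoter peak was listed for 0 of the 11 network genes at E16.5 and for 2 of 11 at E13.5, beside 9.42% and 4.93% of protein-coding genes. The E13.5 ones lay 917 bp upstream of Tle1 and 334 bp upstream of Tle4. Tle3 had a recurring peak just outside the 1 kb limit, 1176 bp upstream at E16.5 and 1196 bp upstream at E13.5. Within 50 kb, 3 of 11 network genes had a peak at E16.5 (Tle1, Tle2 and Tle3) and 4 of 11 at E13.5 (Dach1, Tle1, Tle3 and Tle4), against the 15.1% and 10.8% of protein-coding genes given above. The Dach1 peak within that window lay 46397 bp downstream of the TSS.

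**Figure D4:**
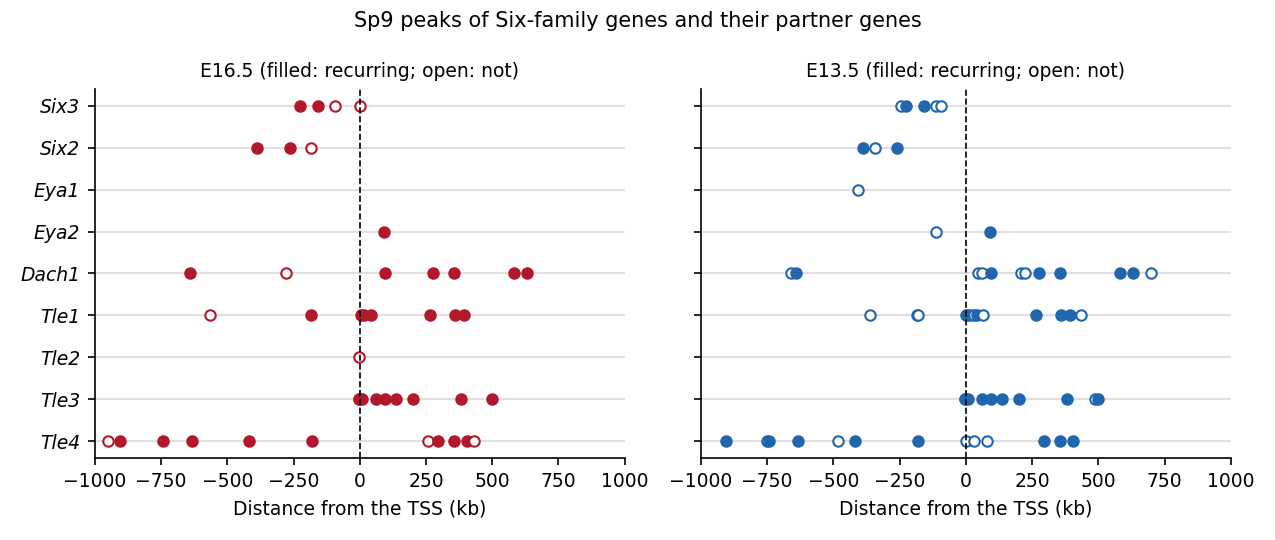
Sp9 peaks at E16.5 (left, red) and E13.5 (right, blue) by their distance in kb from the TSS of Six3, Six2 and the network genes with a row in either list. Filled points recur in the other list within 200 bp; the Six3 and Six2 peaks lie to the left of the dashed TSS line or on it, while those of Dach1, Tle1 and Tle4 lie on both sides.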

How the data were processed

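Sp9 ChIP-seq and input libraries of mouse basal ganglia (1 each at E16.5 and E13.5) were prepared by the submitters. The authors deposited 1 list per ChIP library, in which each gene is followed by numbered peaks and their signed TSS distances in bp, as text without any standard unit. The build was mm9, per the file headers, which set a gene's domain at 5000 bp before and 1000 bp after its TSS with an extension of at most 1000000 bp and curated domains. MACS2 2.1.0, BWA 0.6.2, bcl2fastq 1.8.4 and CASAVA 1.8.2 are listed, with no roles, per the submitters' processing notes; the sources used here do not say how peaks were thresholded.

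Each peak number was counted once. Names were matched to RefSeq genes (GRCm38.p6, for names and gene order), by symbol or a unique synonym, which gave 5163 protein-coding genes at E16.5 and 4537 at E13.5. Promoter sequences, their coordinates, motif counts and the spacing of start sites came from the RefSeq promoter table of that build. The matching code was run on simulated peaks moved either well within the 200 bp limit or far beyond it. That run checked the code and does not bear on the choice of limit. Scripts used Python 3.11.15, numpy 2.4.6, scipy 1.17.1 and matplotlib 3.10.9. Members, gene lists and windows were chosen with earlier results of these data known. The genes named are the members, genes sharing a peak with them, network genes with a peak within 50 kb and 5 genes like Six3 by peak numbers, the last 4 taken by name from 7 tied genes. Flanking genes, other network genes and the other tied genes were added after their values were seen. One gene of the planned network list is not reported here. Alternatives were other windows, matching limits, promoter widths, counting by entries or by member, and the nearest TSS.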

Additional observations from a re-analysis of the deposited data

How the results depend on the processing

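Of 26 values recomputed under other settings, 17 equalled the reported count, 5 differed from it by at most 1.5 times and 4 by more. The number of Six-family genes with a peak within 50 kb became 2 at E16.5 and 2 at E13.5 when any assigned distance was allowed (Six3 and Six2 at both stages), and 1 at E13.5 within 100 kb, through the Six3 peak at 92082 bp. With peaks assigned to the nearest TSS alone, the family had 5 of its 7 peaks at E16.5 and 5 of 8 at E13.5, where all 3 Six2 peaks went to Srbd1. The recurring peaks numbered 4 in each list within 100 bp and 5 within 500 bp and 1 kb, where the Six3 pair near 92 kb was added. The Six-family promoter counts were the same within 500 bp and 2.5 kb. Those of the network genes, recomputed after the data were seen, were 0 at E16.5 and 1 at E13.5 within 500 bp, where Tle1 dropped out, and 1 at E16.5 and 3 at E13.5 within 2.5 kb, where Tle3 was added. No paired analysis was possible because each stage had 1 ChIP library and no test was made. Depth and peak strength are unknown, so sites under the authors' threshold could not be seen in either list.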
